A study of Mus musculus with 8 samples.

Results

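The myogenic regulatory factors Myf5, Myod1, Myog and Myf6 and the paired box genes Pax7 and Pax3 were followed through 8 libraries of poly(A) RNA from cultured mouse muscle stem cells. These 6 genes were chosen by symbol, and each symbol matched 1 of the 55223 loci of the joint expression table. The donor mice were C57BL/6J wild types, all female and 6 to 8 weeks of age, and the muscle cells were expanded on Matrigel for 2 days. All cultures, controls included, then spent 6 h in serum-free medium with a soluble BMP receptor at 200 ng/ml (BMPR-IA/ALK3-Fc), which captures BMPs left over from the medium. A pulse of 1 h followed. The BMP4 group received 100 ng/ml BMP4 (n = 2) and its controls, called vehicle_a, received the vehicle of 4 mM HCl with 0.1% BSA (n = 2). Both groups came from isolations 48 and 54. The BMP6 group received 100 ng/ml BMP6 (n = 2) and its controls, called vehicle_b, the same vehicle (n = 2), and both came from isolations 75 and 77. Each isolation gave 1 stimulated and 1 vehicle culture. BMP4 and BMP6 are ligands of the bone morphogenetic protein family. No isolation received both, so the ligand, the isolations and the experiment cannot be told apart. How many animals made up an isolation is not given in the labels.

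The 4 myogenic regulatory factors are basic helix-loop-helix (bHLH) transcription factors that pair with E proteins, bind E-boxes in muscle genes and switch on the muscle programme. In adult muscle, PAX7 marks the stem cells and acts upstream of Myf5, Myf5 and Myod1 mark cells that have entered the lineage, and Myog drives their differentiation into fusing muscle cells. Myf6 is linked to later differentiation, and Pax3 is a close relative of Pax7 with known roles in the embryonic precursors and in stem cells of some adult muscles. BMP signalling acts through SMAD proteins and switches on Id genes, whose products bind E proteins and so keep bHLH factors off the DNA.

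The libraries held 48012825 to 58002740 estimated reads, and values are given as TPM (a transcript count scaled to a fixed library total), a share of each library corrected for transcript length. The BMP target Id1, used as a check of the treatment, stood at 349.4 and 364.7 TPM in the BMP4 cultures against 149.4 and 100.0 TPM in vehicle_a, and at 379.2 and 403.2 TPM in the BMP6 cultures against 103.3 and 116.7 TPM in vehicle_b. The 15 markers of muscle stem cells summed to 907.7 TPM or more in all libraries. Of them, 1 was under 1 TPM in both libraries of vehicle_a and of BMP4, and 3 were in both of vehicle_b and of BMP6. Calcr, which marks quiescent cells, reached at most 0.279 TPM. All 8 endothelial markers were under 1 TPM, with Tie1 and Emcn at 0, and the immune markers Ptprc and Adgre1 were at 0 in all 8 libraries. The 7 immune markers summed to 12.0 to 18.5 TPM, of which Itgam made up 10.9 to 17.1 TPM and Cd68 0.919 to 2.01 TPM. The 8 fibro-adipogenic markers summed to 15.4 to 20.9 TPM and the 6 Schwann cell markers to 5.65 to 13.3 TPM. The 8 pericyte and smooth muscle markers were not low. They summed to 857.3 to 1634 TPM in vehicle_a and 839.3 to 1557 TPM in BMP4 cultures. In vehicle_b they summed to 80.56 to 83.57 TPM and in BMP6 cultures to 84.54 to 89.65 TPM. Inside the BMP4 experiment the libraries of isolation 54 stood apart: the 31 muscle differentiation genes examined here summed to 26380 TPM (BMP4) and 26840 TPM (vehicle_a) there, against 7357 TPM (BMP4) and 8020 TPM (vehicle_a) in isolation 48.

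The members' transcripts can be told apart by these 50 nt reads. The 4 bHLH genes are most alike in a stretch of their coding sequence that encodes the end of the loop and the beginning of the second helix, and this stretch is shown because it is where reads of the 4 genes could be confused. The 60 nt windows below are from GENCODE M21 transcripts (mouse GRCm38), 5′ to 3′, with the 44 bases that all 4 genes share in capitals.
Myf5: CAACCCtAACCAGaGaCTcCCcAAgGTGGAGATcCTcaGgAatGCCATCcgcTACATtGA
Myod1: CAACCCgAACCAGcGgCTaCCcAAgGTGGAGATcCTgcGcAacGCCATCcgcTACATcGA
Myog: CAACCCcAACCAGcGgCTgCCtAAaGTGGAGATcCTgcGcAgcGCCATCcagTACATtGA
Myf6: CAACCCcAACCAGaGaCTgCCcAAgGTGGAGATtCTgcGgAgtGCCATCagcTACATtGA
Even here Myf5 matches Myod1 at 51 of 60 bases, Myf6 at 53 and Myog at 47. The longest stretch shared by any pair among the bHLH transcripts was 26 nt, between Myf5 and Myod1, and the longest shared by Pax7 and Pax3 was also 26 nt. None of the 50 nt words of Myf5, Myod1, Myog, Myf6 or Pax7 occurs in a transcript of another gene. Of the 3864 words of Pax3, 17 do. No other locus overlaps any of the 6 genes.

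The levels of the 6 genes were ordered in nearly the same way in all groups. In the BMP4 experiment Myog was the highest of them, followed by Myod1, Myf5, Pax7, Myf6 and Pax3, in BMP4 and in vehicle_a cultures. In the BMP6 experiment Myod1 was above Myog and the rest of the order was the same, in BMP6 and in vehicle_b cultures. No neighbours in this order overlapped in any of the 4 groups of 2 libraries. The means spanned 1668 TPM (Myog) to 0.350 TPM (Pax3) in BMP4 cultures and 1727 to 0.481 TPM in vehicle_a cultures for the same genes. Myod1 and Pax3 marked the ends in the other experiment, with 600.7 and 0.621 TPM in BMP6 cultures and 451.3 and 0.461 TPM in vehicle_b cultures.

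**Figure D1:**
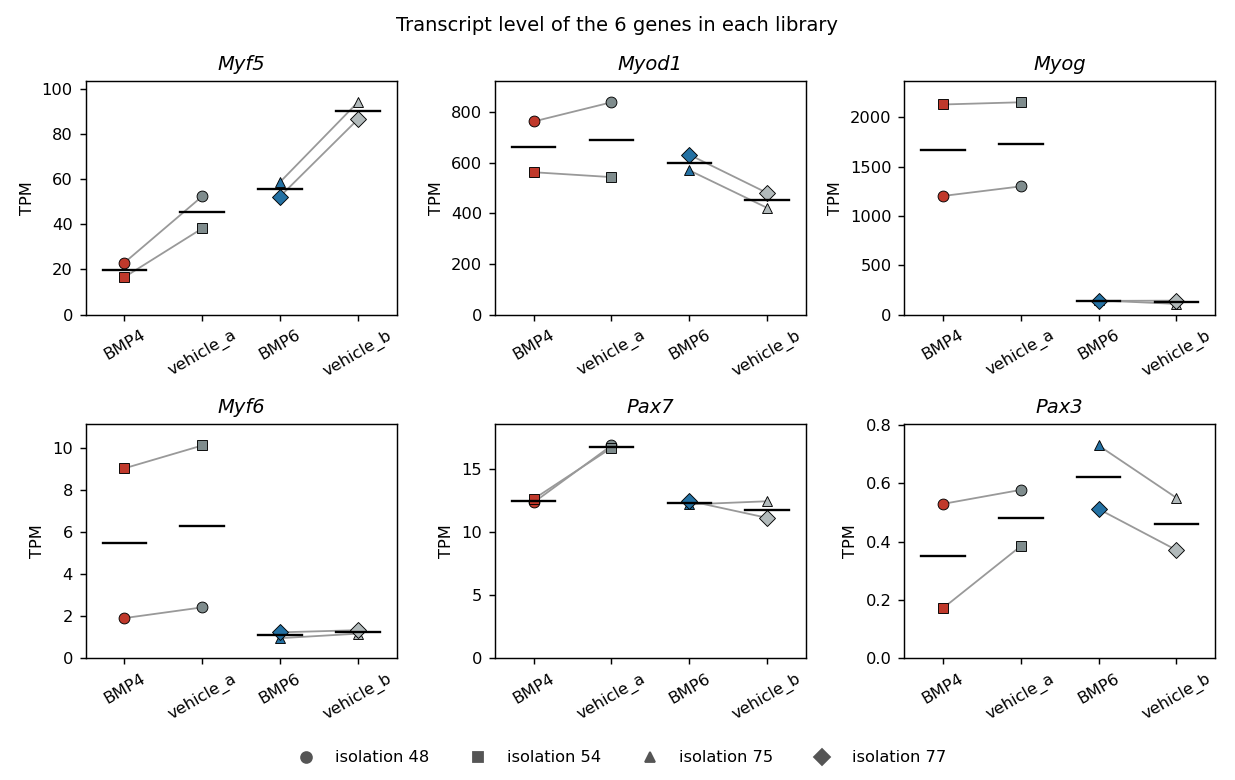
Transcript level (TPM, linear axes starting at 0) of each gene in each of the 8 libraries. A symbol shape is an isolation, grey lines join the stimulated and the vehicle culture of the same isolation, and black bars are group means (n = 2). Myf5 is lower in the stimulated culture of all 4 isolations, while Myog separates the experiments, with 1204 to 2154 TPM in one and 110 to 145 TPM in the other.

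Myf5, the earliest acting of the bHLH factors in the embryo and a mark of committed stem cells in the adult, was lower after either BMP. Its locus (merged_LIST.3000, GRCm39 chr10:107318769-107321995, minus strand) has 3 exons. Myf5 stood at 23.0 and 16.6 TPM in the BMP4 cultures of isolations 48 and 54, against 52.3 and 38.2 TPM in their vehicle_a cultures. It stood at 58.6 and 52.3 TPM in the BMP6 cultures of isolations 75 and 77, against 94.0 and 86.4 TPM in their vehicle_b cultures. The groups did not overlap in either experiment, and the isolations moved by nearly the same amount: Myf5 fell by 56.0% with BMP4 in isolation 48 and fell by 56.5% in isolation 54, and with BMP6 it fell by 37.6% in isolation 75 and fell by 39.5% in isolation 77. These values rest on 1277 to 7441 estimated reads a library.

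The test across all loci depended on whether the isolation was in the model. In limma on log2(TPM + 0.5) with 4 group means and no block, the log2 change of Myf5 was -1.17 (SE 0.21, adjusted p = 0.427) for BMP4 and -0.70 (SE 0.21, adjusted p = 1) for BMP6, and none of the 5 genes tested passed the adjusted threshold of 0.05. That fit called few loci at all, 4 of 16908 (0.0237%) for BMP4 and 2 (0.0118%) for BMP6. With the isolation as a block, which the labels supply, the same changes had an SE of 0.04. In that fit Myf5 fell with BMP4 (adjusted p = 0.00326) and with BMP6 (adjusted p = 0.0192). A term for each isolation and each ligand leaves few libraries to estimate the spread of a locus. For BMP4, 3439 loci had an unadjusted p under 0.05 with the block, against 560 without it. The blocked fit called 107 loci (0.633%) for BMP4, of which 15 were lower (0.0887%), and 25 loci (0.148%) for BMP6, of which 2 (0.0118%) were lower. Myf5 was the only one of the 5 tested members called in each. By unadjusted p it ranked 4 of 16908 with BMP4 and 9 with BMP6. The mean of both responses was -0.93 (SE 0.15, adjusted p = 0.217, against 12 loci called or 0.071%) without the block, and in the blocked fit Myf5 fell (SE 0.03, adjusted p = 0.00151, against 114 loci called or 0.674%, with 8 of them lower or 0.0473%). The BMP4 call also passed in the blocked fit without isolation 48 (adjusted p = 0.0134) or without isolation 54 (adjusted p = 0.0194), but each leaves 1 BMP4 pair, which is assumed to vary like the BMP6 pairs. The BMP6 call did not hold without isolation 75 (-0.72, adjusted p = 0.302) or without isolation 77 (-0.68, adjusted p = 0.278), each of which leaves 1 BMP6 pair. By voom on estimated reads with the block Myf5 passed with BMP4 (adjusted p = 0.0223) and not with BMP6 (adjusted p = 0.0949).

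**Figure D2:**
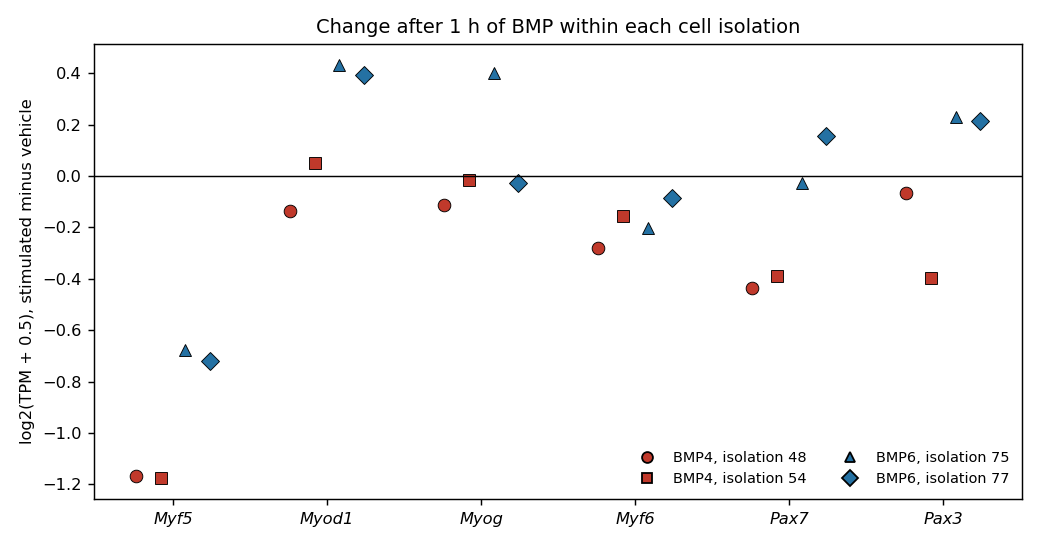
Difference of log2(TPM + 0.5), stimulated minus vehicle, within each of the 4 isolations for the 6 genes, 1 point an isolation. Myf5 lies between -1.18 and -0.68 in all 4 isolations, while the other genes lie between -0.44 and 0.43.

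An exact sign-flip permutation test over the 4 isolations, which borrows no spread from other loci, cannot go below p = 0.125 (two-sided). Myf5 was lower in 4 of 4 isolations (mean log2 change -0.93 ± 0.27, SD, p = 0.125 by the exact test). Its log2 change minus that of Myod1 in the same libraries was -1.12 ± 0.08 (SD), negative in 4 of 4 isolations. The ratio of Myod1 to Myf5 was 33.1 and 33.9 in BMP4 cultures against 16.02 and 14.23 in vehicle_a, and 9.72 and 12.1 in BMP6 cultures against 4.49 and 5.57 in vehicle_b. This ratio, which does not depend on how libraries are scaled, was higher in the stimulated culture of all 4 isolations. The log2 change of Myf5 minus that of Myog was -0.9965, minus that of Myf6 -0.75 and minus that of Pax7 -0.76, each negative in 4 of 4 isolations. All 4 differences had p = 0.125, the smallest the exact permutation test allows.

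All 3 exons of Myf5 were lower after either BMP, as read from the deposited exon coverage scaled to TPM. Exon 1 stood at 36.4 and 22.2 in BMP4 cultures against 87.8 and 62.7 in vehicle_a, and at 76.7 and 62.2 in BMP6 cultures against 120.1 and 109.2 in vehicle_b. Exon 2 stood at 41.6 and 23.9 in BMP4 cultures against 110.9 and 89.8 in vehicle_a, and at 95.7 and 81.2 in BMP6 cultures against 165.6 and 140.1 in vehicle_b. Exon 3, which ends the transcript, stood at 14.7 and 13.2 in BMP4 cultures against 29.8 and 21.9 in vehicle_a, and at 46.7 and 45.3 in BMP6 cultures against 75.7 and 70.9 in vehicle_b. Every stimulated value was below the vehicle value of its isolation. The exons did not move by one common amount with BMP4: exons 1, 2 and 3 changed by -1.48, -1.89 and -0.71 (log2) in isolation 54 and by -1.26, -1.40 and -0.99 in isolation 48. Exon 3 over exon 1 was 0.404 and 0.593 in BMP4 cultures against 0.339 and 0.350 in vehicle_a, and 0.609 and 0.728 in BMP6 cultures against 0.630 and 0.649 in vehicle_b. The groups were apart in the first pair and overlapped in the second. The same ratio lay between 0.708 and 0.854 for Myod1 and between 0.930 and 1.06 for Myog over all 8 libraries.

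**Figure D3:**
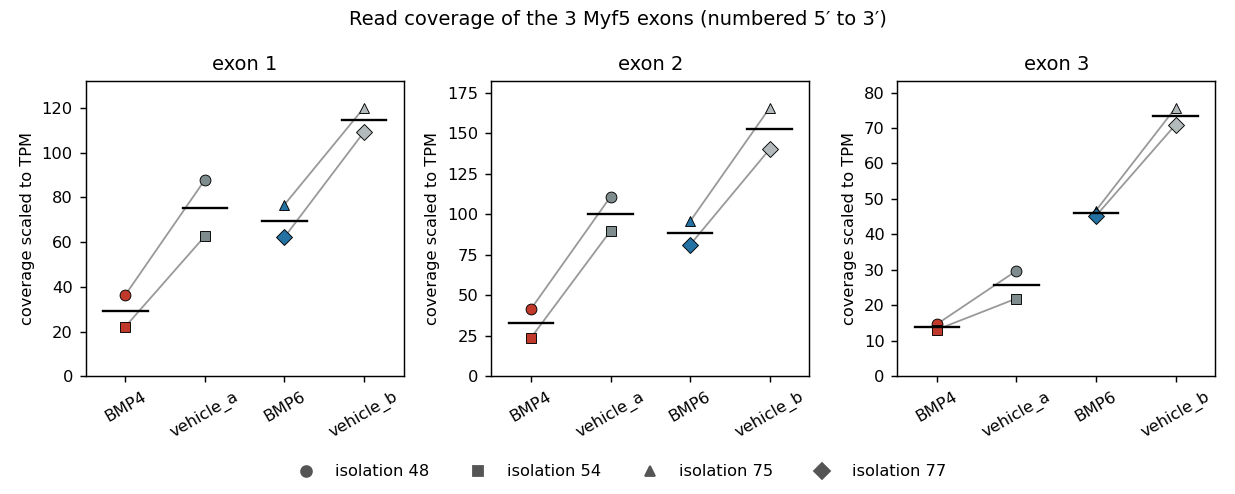
Read coverage of the 3 Myf5 exons scaled to TPM (linear axes starting at 0), numbered from the 5′ end, in each library, with lines joining the cultures of an isolation and bars at group means (n = 2). Every exon is lower in the stimulated culture of each isolation. Exon 3 lies between 13.2 and 75.7 and is below exon 1 in every library.

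Of the 6 genes, Myf5, Myog and Pax7 matched an entry of the RefSeq promoter table. The Myf5 promoter is shown because Myf5 is the member that fell in the blocked fit. It covers 250 bases before to 50 after the start (GRCm38.p6, chr10:107486085-107486384, minus strand), 5′ to 3′, with matches to the SMAD-binding core AGAC on either strand in capitals.
Myf5 promoter: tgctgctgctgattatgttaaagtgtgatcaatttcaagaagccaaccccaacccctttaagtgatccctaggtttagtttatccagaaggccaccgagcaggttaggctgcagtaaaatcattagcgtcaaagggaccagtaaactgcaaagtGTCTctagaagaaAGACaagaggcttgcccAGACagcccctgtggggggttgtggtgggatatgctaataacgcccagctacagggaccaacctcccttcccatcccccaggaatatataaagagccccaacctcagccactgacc
It holds 3 matches to AGAC. This motif occurs in 88.0% of 32851 mouse promoters of the same length, with a median of 2 matches, so its presence does not set Myf5 apart. The window holds no match to the longer BMP-type SMAD motif GGCGCC (11.9% of promoters do) and none to the E-box CANNTG (72.3% do). It holds 1 match to TATAAA (13.6% do), which lies at +21, after the start used for this window. The Myog promoter (GRCm38.p6, chr1:134289754-134290053, plus strand) is shown for contrast, with its E-boxes in capitals, since bHLH factors act on Myog through E-boxes.
Myog promoter: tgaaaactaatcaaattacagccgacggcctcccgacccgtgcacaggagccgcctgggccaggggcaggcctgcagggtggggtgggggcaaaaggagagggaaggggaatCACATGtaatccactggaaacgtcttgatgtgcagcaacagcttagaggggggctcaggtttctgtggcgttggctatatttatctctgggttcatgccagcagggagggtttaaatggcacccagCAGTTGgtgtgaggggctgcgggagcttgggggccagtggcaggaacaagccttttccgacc
It holds 2 matches to CANNTG, 1 to AGAC and none to either of the other motifs. The Pax7 window holds 3 matches to AGAC and none to the other motifs searched. A match describes the letters of the window and is not evidence of binding.

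Myod1, the factor that commits activated stem cells to the muscle lineage (merged_LIST.21814, chr7:46025898-46028523, plus strand), stood at 763 and 562 TPM in BMP4 cultures against 839 and 543 TPM in vehicle_a, lower in one isolation and higher in the other (log2 change -0.04, SE 0.24, adjusted p = 1). It stood at 570 and 631 TPM in BMP6 cultures against 422 and 481 TPM in vehicle_b. The BMP6 groups did not overlap, and the BMP6 level was 1.35 and 1.31 times the vehicle_b level in isolations 75 and 77. The log2 change of 0.41 did not pass in limma (SE 0.24, adjusted p = 1) or with the block (SE 0.05, adjusted p = 0.142). Leaving isolation 48 or 54 out of the blocked fit brought its adjusted p to 0.0493 and 0.0495. All 3 exons of Myod1 were higher in both BMP6 pairs, by 0.38 to 0.49 on the log2 scale.

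Myog, which drives differentiation (merged_LIST.1194, chr1:134217727-134220286, plus strand), stood at 1204 and 2131 TPM in BMP4 cultures against 1301 and 2154 TPM in vehicle_a (log2 change -0.06, SE 0.33, adjusted p = 1). It stood at 145 and 140 TPM in BMP6 cultures against 110 and 143 TPM in vehicle_b (0.19, SE 0.33, adjusted p = 1). Within isolations 48, 54, 75 and 77 its log2 change was -0.11, -0.02, 0.40 and -0.03. The groups overlapped in both experiments.

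Myf6, a factor of later differentiation (merged_LIST.3008, chr10:107328714-107330598, minus strand), lies 6718 bases from Myf5 on the same strand. It was low. Myf6 stood at 1.90 and 9.03 TPM in BMP4 cultures against 2.41 and 10.1 TPM in vehicle_a, and at 0.940 and 1.22 TPM in BMP6 cultures against 1.15 and 1.32 TPM in vehicle_b. Every stimulated culture was below its own vehicle, at 0.788 to 0.921 times its level, but the groups overlapped in both experiments. Neither change passed (-0.22, SE 0.77 with BMP4 and -0.14, SE 0.77 with BMP6, adjusted p = 1 for both; with the block adjusted p = 0.308 and 1), and the exact permutation test over the 4 isolations gave p = 0.125. Its values rest on 41.2 to 479 estimated reads a library, and single exons went either way.

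Pax7, the defining transcription factor of muscle stem cells (merged_LIST.17415, chr4:139464373-139560839, minus strand), stood at 12.3 and 12.6 TPM in BMP4 cultures against 16.9 and 16.7 TPM in vehicle_a. The groups did not overlap, and the BMP4 level was 0.732 and 0.756 times the vehicle_a level in isolations 48 and 54. In limma the log2 change was -0.41 (SE 0.11, adjusted p = 0.956), and the block brought this to SE 0.07 and adjusted p = 0.0896, so Pax7 did not pass in either. With BMP6 it stood at 12.2 and 12.5 TPM against 12.4 and 11.1 TPM in vehicle_b, with groups that overlapped (0.06, SE 0.11, adjusted p = 1). Each of the 9 exons of the main Pax7 transcript was lower in both BMP4 pairs. That transcript, ENSMUST00000030508.14, carried 95.6% to 98.0% of the Pax7 signal in all 8 libraries, and the other one, ENSMUST00000174681.2, held 0.322 and 0.256 TPM in BMP4 cultures against 0.732 and 0.742 TPM in vehicle_a.

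Pax3 (ENSMUSG00000004872.16, chr1:78077904-78173771, minus strand) was the lowest of the 6 and its mean was under the minimum of 0.5 TPM, so it was not tested with the others. It stood at 0.530 and 0.171 TPM in BMP4 cultures against 0.578 and 0.384 TPM in vehicle_a, and at 0.730 and 0.512 TPM in BMP6 cultures against 0.550 and 0.371 TPM in vehicle_b. The groups overlapped in both experiments. Its values rest on 22.5 to 89.1 estimated reads a library. The split between its 2 transcripts is no better determined: ENSMUST00000087086.7 took between 11.7% and 100% of the signal, and the library with the lowest share was a BMP6 culture.

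The responses in the BMP6 and BMP4 experiments were compared as the difference of the log2 changes. No isolation received both ligands, so this difference cannot tell the ligand apart from the isolations and the experiment. For Myf5 the BMP6 change minus the BMP4 change was 0.47 (SE 0.29, adjusted p = 1 without the block, SE 0.05 and adjusted p = 0.235 with it). For Myod1 it was 0.46 (SE 0.33, adjusted p = 1, with the block SE 0.07 and adjusted p = 0.252), and for Pax7 it was 0.48 (SE 0.16, adjusted p = 1, with the block SE 0.10 and adjusted p = 0.274). None of the 5 genes passed, nor did any of the 16908 loci (0%), by either fit, although 244 loci had an unadjusted p under 0.05 without the block and 2251 with it. By voom on estimated reads, another limma fit, 1 locus passed without the block and 2 with it, and no member was among them.

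The 4 bHLH factors were also compared as a family. Their transcripts summed to 1991 and 2719 TPM in BMP4 cultures against 2194 and 2745 TPM in vehicle_a, and to 774 and 825 TPM in BMP6 cultures against 627 and 711 TPM in vehicle_b. Myf5 made up 1.16% and 0.611% of that sum in BMP4 cultures against 2.38% and 1.39% in vehicle_a, and 7.57% and 6.34% in BMP6 cultures against 15.0% and 12.2% in vehicle_b. Its share was smaller in every stimulated culture than in the vehicle culture of the same isolation. The Myog share was 60.5% and 78.4% in BMP4 cultures against 59.3% and 78.5% in vehicle_a, and 18.7% and 17.0% in BMP6 cultures against 17.5% and 20.1% in vehicle_b. Myf6 made up at most 0.369% of the sum in the 8 libraries.

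**Figure D4:**
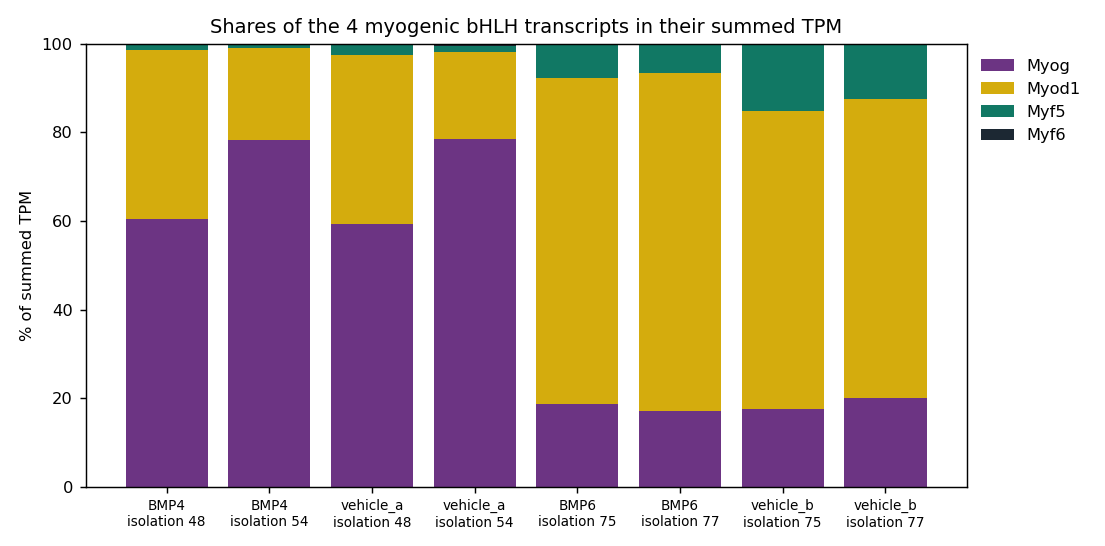
Share (%) of Myog, Myod1, Myf5 and Myf6 in the summed TPM of these 4 genes, 1 bar a library. Myog makes up 59.3% to 78.5% in the BMP4 experiment and 17.0% to 20.1% in the BMP6 experiment, and the Myf5 segment is thinner in each stimulated culture than in the vehicle culture of its isolation.

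The genes that work with or against these factors were described from 8 lists, chosen with earlier results of these data known. The inhibitor list also holds Id1, the check of the treatment, so its counts and medians describe it and are not a test. Of the 8 lists the inhibitors of myogenic bHLH factors had the most calls. Of their 19 genes 15 were tested: with the block 4 rose with BMP4 (Bhlhe40, Hes1, Id1 and Id4), 3 with BMP6 (Hes1, Id1 and Snai1) and 6 in the mean of both responses (those 5 and Id3), and none fell. Over all loci 92 rose with BMP4 (0.544%), 23 with BMP6 (0.136%) and 106 in the mean of both responses (0.627%) in the same fits. Without the block the counts were 0, 0 and 2 (Id1 and Snai1). The median log2 change of the 15 was 0.75 with BMP4, against -0.02 over all loci, and 0.81 with BMP6, against -0.002 over all loci. Summed over the list, these transcripts reached 1105 to 1120 TPM in BMP4 cultures against 410.5 to 594.7 TPM in vehicle_a, and 1161 to 1331 TPM in BMP6 cultures against 453.4 to 542.1 TPM in vehicle_b. The groups did not overlap.

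Hes1, a Notch and BMP target that represses bHLH genes, stood at 119 and 58.7 TPM in BMP4 cultures against 14.2 and 11.4 TPM in vehicle_a, and at 66.1 and 94.0 TPM in BMP6 cultures against 6.04 and 12.5 TPM in vehicle_b (log2 changes 2.67 and 3.10, blocked adjusted p = 0.0226 and 0.0303). Snai1, a zinc-finger repressor that binds E-boxes, stood at 95.5 and 98.1 TPM in BMP4 cultures against 36.0 and 16.9 TPM in vehicle_a, and at 55.8 and 47.6 TPM in BMP6 cultures against 4.66 and 3.76 TPM in vehicle_b. Its BMP6 change of 3.47 passed with the block (adjusted p = 0.0411), and its BMP4 change of 1.95 did not (adjusted p = 0.0627). Bhlhe40, a bHLH repressor that antagonises MYOD1, stood at 83.3 and 82.2 TPM in BMP4 cultures against 16.5 and 19.9 TPM in vehicle_a (2.16, blocked adjusted p = 0.00326). With BMP6 it stood at 40.0 and 54.4 TPM against 24.1 and 34.6 TPM in vehicle_b (0.68, blocked adjusted p = 0.103).

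Id1, Id3 and Id4, which lack a DNA-binding region and trap E proteins, rose in the mean of both responses with the block (1.69, 1.25 and 1.12, adjusted p = 0.0114, 0.0446 and 0.0237). Id3 stood at 240.4 and 233.2 TPM in BMP4 cultures against 178.5 and 96.2 TPM in vehicle_a, and at 364.7 and 392.4 TPM in BMP6 cultures against 117.1 and 121.7 TPM in vehicle_b. Id4 was low, at most 1.92 TPM. Id2 did not pass, at 110.6 and 94.1 TPM in BMP4 cultures against 91.7 and 44.6 TPM in vehicle_a, and 172.1 and 224.7 TPM in BMP6 cultures against 123.2 and 131.0 TPM in vehicle_b.

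The E proteins, the dimer partners of the myogenic factors, gave 0 calls among 3 tested genes with either BMP. Tcf3 stood at 45.7 and 38.1 TPM in BMP4 cultures against 55.7 and 48.5 TPM in vehicle_a (log2 change -0.31, blocked adjusted p = 0.0627). Of the MEF2 factors, which act together with MYOD1 and MYOG on muscle genes, 3 of 4 had a locus and none passed. None of 15 tested upstream activators of the myogenic regulators passed (Eya1, Eya4 and other genes), with medians of -0.02 for BMP4 and 0.05 for BMP6. None of the 8 PAX cofactors passed.

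Of 10 listed targets of PAX3 and PAX7, 1 rose with BMP4, 1 with BMP6 and 2 in the mean response with the block, against 0.544%, 0.136% and 0.627% of all loci, and none without it. They were Cxcr4, a chemokine receptor on muscle stem cells, and Id3, which is also on the inhibitor list. Cxcr4 stood at 40.0 and 36.4 TPM in BMP4 cultures against 15.3 and 13.2 TPM in vehicle_a, and at 29.1 and 17.9 TPM in BMP6 cultures against 10.4 and 5.79 TPM in vehicle_b (log2 changes 1.39 and 1.49, blocked adjusted p = 0.00534 and 0.0121). Among 31 muscle differentiation targets of MYOD1 and MYOG, none passed with either BMP, and their medians were -0.08 with BMP4 and 0.06 with BMP6. Of 9 regulators of the stability of myogenic mRNAs, Zfp36l2, an RNA-binding protein that speeds mRNA decay, rose with BMP4 in the blocked fit (43.6 and 32.3 TPM in BMP4 cultures against 19.9 and 15.9 TPM in vehicle_a, 1.06, adjusted p = 0.00615). With BMP6 it stood at 54.9 and 63.4 TPM against 50.7 and 60.4 TPM in vehicle_b and did not pass. Of 14 stem cell markers tested, Cxcr4 and Sdc4, a syndecan of satellite cells, rose with BMP4 in the blocked fit, and Sdc4 stood at 25.1 and 10.7 TPM in BMP4 cultures against 8.65 and 4.69 TPM in vehicle_a (1.296, blocked adjusted p = 0.0222, adjusted p = 1 without the block). With BMP6 Sdc4 stood at 54.6 and 67.2 TPM against 55.2 and 68.2 TPM in vehicle_b (-0.018, adjusted p = 1 by either fit). Cspg4, a pericyte marker, was the only gene of the other cell type lists that passed in a BMP comparison (mean response 0.49, blocked adjusted p = 0.0261), and its part in the results above was not tested.

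The unstimulated cultures of the experiments differed in Myog, Myf5 and Pax7 in the fit without the block. That fit treats the stimulated and vehicle cultures of an isolation as independent when it estimates the spread. Their deviations correlated at 0.707 (isolations 48 and 54) and 0.455 (isolations 75 and 77), so the p-values of this comparison can be too small. Myog stood at 110 and 143 TPM in vehicle_b against 1301 and 2154 TPM in vehicle_a (log2 difference -3.74, SE 0.33, adjusted p = 0.00486). Myf5 stood at 94.0 and 86.4 TPM in vehicle_b against 52.3 and 38.2 TPM in vehicle_a (1.00, SE 0.21, adjusted p = 0.0220), and Pax7 at 12.4 and 11.1 TPM in vehicle_b against 16.9 and 16.7 TPM in vehicle_a (-0.49, SE 0.11, adjusted p = 0.0261). Myod1 (-0.58, SE 0.24, adjusted p = 0.104) and Myf6 (-1.68, SE 0.77, adjusted p = 0.140) did not pass, and Pax3 was not tested. The 3 of 5 members called compare with 4602 of 16908 loci (27.2%), of which 1799 (10.6%) were higher and 2803 (16.6%) lower in vehicle_b. In vehicle_b the ratio of Myog to Myod1 was 0.260 and 0.297, against 1.55 and 3.96 in vehicle_a. In bulk RNA a smaller number of Myog-expressing cells and less Myog RNA in each of them cannot be told apart.

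**Figure D5:**
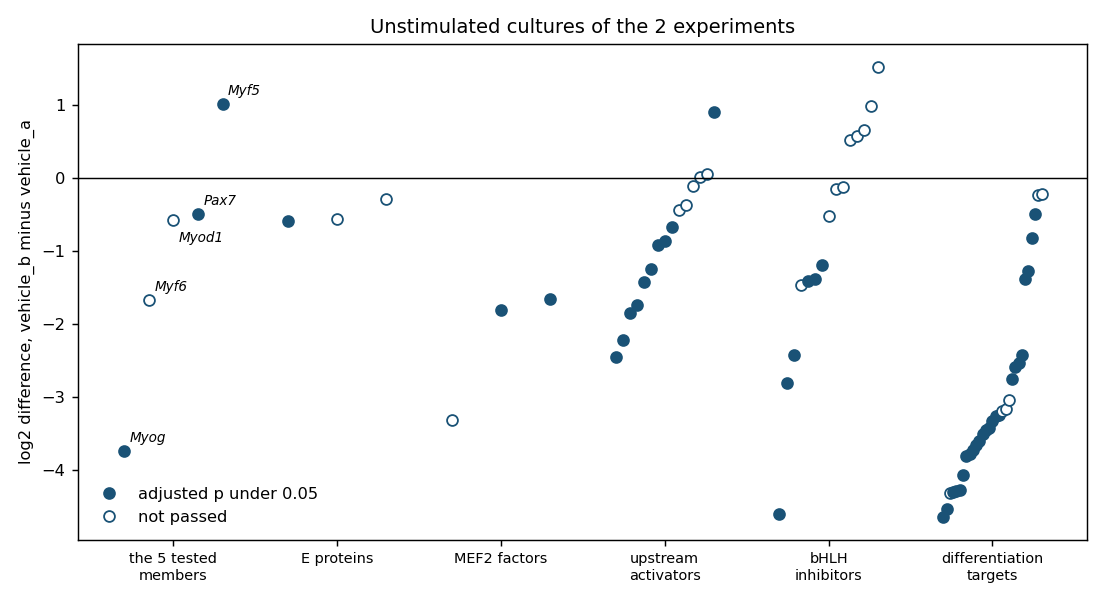
Difference of log2(TPM + 0.5), vehicle_b minus vehicle_a, for the 5 tested members and for the genes of 5 lists, sorted within each list. Filled points passed the adjusted threshold of 0.05. Myog lies at -3.74 and Myf5 at 1.00, and the differentiation targets lie between -4.65 and -0.23.

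The genes around the members differed in the same comparison, in which 16.6% of all loci were lower and 10.6% higher in vehicle_b. The counts below are to be read against these shares. Of 31 muscle differentiation targets, 25 were lower in vehicle_b and none higher, with a median log2 difference of -3.33 against -0.01 over all loci, and their summed level was 1661 to 2285 TPM in vehicle_b against 8020 to 26840 TPM in vehicle_a. The muscle fusion gene Mymk stood at 37.2 and 45.5 TPM in vehicle_b against 284.3 and 963.5 TPM in vehicle_a (-3.65, adjusted p = 0.0197), and Mymx, its partner in fusion, at 8.26 and 15.5 TPM in vehicle_b against 186.1 and 471.1 TPM in vehicle_a (-4.65, adjusted p = 0.00980). Of 3 tested MEF2 factors, Mef2a and Mef2d were lower in vehicle_b (-1.66 and -1.82, adjusted p = 0.0165 and 0.0182), and Mef2c at 1.59 and 2.27 TPM in vehicle_b against 8.61 and 62.5 TPM in vehicle_a did not pass. Of 15 upstream activators 9 were lower, among them Eya4 (-1.43), and Eya1 was higher (0.90). The E protein Tcf4 was lower (-0.59, adjusted p = 0.0253). Of 15 inhibitors 6 were lower, among them the Notch target Heyl (-4.60). Of 14 tested stem cell markers, Cd34 (3.36), Sdc4 (3.17) and the receptor Met (1.20) were higher in vehicle_b. Another 6 were lower, among them Cdh15 (-2.23) and Ncam1 (-1.38).

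The 8 pericyte and smooth muscle markers moved with this difference, summing to 80.6 to 83.6 TPM in vehicle_b against 857.3 to 1634 TPM in vehicle_a. Of the 6 tested, 4 were lower in vehicle_b, as were 16.6% of all loci. Acta2 made up most of the sum (52.5 and 59.3 TPM in vehicle_b against 719.4 and 1395 TPM in vehicle_a). The genes of the list under the minimum for testing, Rgs5 and Kcnj8, were at most 0.294 TPM in all 8 libraries. The 6 tested genes, among them the pericyte marker Cspg4, had a mean of at least 0.5 TPM. The part of this list in the Myog difference was not tested. Without the vehicle_b library of isolation 75 no member passed (Myog adjusted p = 0.0524) and 12 loci were called in all, and without that of isolation 77 no member passed either (Myog adjusted p = 0.0530) and 5 loci were called. Without the second vehicle_a library, from isolation 54, only Myog passed among the members (-3.37, adjusted p = 0.0279) and 420 loci were called.

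The genes whose levels ran most like those of each member were found over the 8 libraries, as the smallest root mean square difference of centred log2(TPM + 0.5) values among 12314 genes, for the 3 members whose level ranged over at least 1 log2 unit. For Myog they were Palmd (0.112), Ccdc141 (0.141) and Kcnk13 (0.181). Palmd stood at 13.8 and 24.1 TPM in BMP4 cultures against 13.9 and 23.6 TPM in vehicle_a, and at 0.976 and 1.24 TPM in BMP6 cultures against 0.981 and 1.14 TPM in vehicle_b. For Myf6 they were Fzd10 (0.0922), Derl3 (0.0959) and Cilp2 (0.116), all highest in the libraries of isolation 54. For Myf5 the nearest genes were farther away: Plk2 (0.296), Rpl31-ps24 (0.352) and Ciart (0.356). Plk2 was lower in 4 of 4 stimulated cultures, at 79.3 and 37.6 TPM in BMP4 cultures against 81.8 and 97.1 TPM in vehicle_a, and at 157.4 and 128.0 TPM in BMP6 cultures against 229.3 and 187.3 TPM in vehicle_b. The clock gene Ciart was lower in 4 of 4 as well, at 4.92 and 1.95 TPM in BMP4 cultures against 9.46 and 4.30 TPM in vehicle_a, and at 9.45 and 11.4 TPM in BMP6 cultures against 10.1 and 12.5 TPM in vehicle_b. The points behind these distances share libraries, experiments and isolations, so they describe these 8 libraries only. Plk2 and Ciart were picked for running like Myf5 in the same libraries, so their direction is not a separate result.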

How the data were processed

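The deposited libraries were strand-specific, sequenced as 50 nt single-end reads after poly(A) selection from 500 ng of RNA, per the labels' protocols. The submitters' processing notes name STAR 2.7.11a, SAMtools 1.17, StringTie 2.2.1 and GRCm39. The authors made the TPM and FPKM values with StringTie against their merged annotation, with no strand option, per the file headers. Coverage signal per transcript and exon was deposited with them. TPM are shares of a library.

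TPM matched between the joint and the single-library tables in 55223 of 55223 rows (tolerance 1e-05). Estimated reads (coverage times length over 50 nt) served as depth. Groups came from the treatment labels. The main test was limma 3.58.1 (R 4.3.3) on log2(TPM + 0.5), over the 16908 loci whose mean reached 0.5 TPM, with 4 group means, a variance trend and Benjamini-Hochberg adjustment over all loci, threshold 0.05. Folds on this scale understate changes of low genes. The alternative fit had the isolation as a block. The labels give stimulated and vehicle cultures the same isolation, and the deviations of same-numbered libraries correlated at 0.707 (isolations 48 and 54) and 0.455 (75 and 77). Single values were tested with an exact sign-flip permutation test. Other alternatives were pseudocounts, filters, median centring, FPKM, voom on estimated reads, each experiment alone and leaving out each library. The fit was tested on simulated data.

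All 6 members were named in every comparison. From each list the text names, in BMP comparisons, the genes that passed with or without the block (at most 6) or examples by smallest unadjusted p. Id2 and the genes named in the vehicle comparison were chosen after their values were seen. The members and lists were chosen with earlier results of these data known.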

Additional observations from a re-analysis of the deposited data

Results flagged for a closer look

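By TPM, Pax3 went opposite ways in the experiments. It was lower in the BMP4 culture of both isolations (0.530 and 0.171 TPM, against 0.578 and 0.384 TPM in vehicle_a) and higher in the BMP6 culture of both (0.730 and 0.512 TPM, against 0.550 and 0.371 TPM in vehicle_b). The BMP6 log2 change minus the BMP4 log2 change was 0.4544 (SE 0.3589, adjusted p = 1 in limma with no filter on low values), which did not pass. These values rest on 22.5 to 89.1 estimated reads a library. In isolation 75 the BMP6 and vehicle_b cultures held 80.3 and 79.3 estimated reads of Pax3, nearly the same number. There the transcript ENSMUST00000004994.16 took 88.3% of the signal in the BMP6 culture against 9.24% in the vehicle_b culture. TPM corrects for transcript length, and the part of this split in the higher TPM was not tested.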

How the results depend on the processing

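The direction of Myf5 with BMP4, with BMP6 and in the mean response was negative under every alternative run, with log2 changes of -1.40 to -0.94, -0.78 to -0.62 and -1.05 to -0.82. Its call needed the replicate block. With the block 1, 1 and 1 members were called with BMP4, BMP6 and in the mean response, against 0, 0 and 0 without it, and by voom with the block 1, 0 and 1. Over all loci the block gave 107, 25 and 114 calls, against 4, 2 and 12 without it, and voom with the block 49, 10 and 84, with 2 for the difference of responses. With no filter on low values 8, 12 and 7 loci were called, 1 for the difference of responses and 2490 between the vehicles, against 4602 with the filter. FPKM gave 2 loci with BMP4, a pseudocount of 2 gave 0 with BMP6, voom gave 15 with BMP6 and 1 for the difference, and each experiment alone gave 0 with BMP4 and 12 with BMP6. The cause of these shifts was not tested.

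Leaving out libraries or isolations gave 0 to 1 members called with BMP4, 0 to 2 with BMP6, 0 to 1 in the mean response and 0 to 3 between vehicles, and 0 to 145, 0 to 49, 0 to 192, 0 to 16 (difference of responses) and 5 to 5551 (vehicles) loci. Pax7 between vehicles did not pass with FPKM (-0.38, adjusted p = 0.0513) or without either BMP6 library (adjusted p = 0.0581 and 0.0580).

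Small changes turned sign. The mean change over isolations of Pax3, -0.0049, became 0.0048 with a pseudocount of 2, 0.0016 after median centring and 0.0054 with FPKM. With isolations left out it spanned -0.083 to 0.13, and that of Myog -0.051 to 0.12. With 1 library or, in the blocked fit, 1 isolation left out, the BMP4 change spanned -0.36 to 0.27 for Myod1, -0.48 to 0.35 for Myog and -1.21 to 0.78 for Myf6. The BMP6 change spanned -0.026 to 0.40 for Myog and -0.028 to 0.16 for Pax7. The mean response spanned -0.14 to 0.27 for Myog and -0.68 to 0.32 for Myf6, and the difference of responses -0.16 to 0.66 for Myog and -0.92 to 1.07 for Myf6. None of these passed the test. The SE of the Myf6 change with BMP4 was 0.77 without the block and 0.10 with it. The fewest estimated reads stood behind Pax3 (22.5 to 89.1 a library) and Myf6 (41.2 to 479).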
